A study of Rattus norvegicus with 4 samples.

Results

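The genes described here carry a cell through mitosis and part its chromosomes. They are the G2/M cyclins with their kinase, further mitotic kinases, the spindle checkpoint, kinetochore and chromosomal passenger proteins, kinesins, and proteins of the spindle, the dividing cell and the chromosomes. The list held 48 genes, chosen by name but with earlier results of these data known. Shares of all genes given beside the members are therefore a description and no independent test. Of the 48 genes, 42 were measured by 58 probe sets with a single gene symbol, of 14217 genes and 31042 probe sets compared in all. Cdc25c, Ndc80, Kif4a, Tpx2, Ckap2 and Anln had no such probe set. RNA came from L6 cells, a rat skeletal myoblast line labelled as Wistar strain. L6-HGF cells carried human hepatocyte growth factor (hHGF) in a pBabepuro retroviral vector and had been selected with puromycin, whereas L6-WT cells were wild type and no empty-vector control was described, so an L6-HGF minus L6-WT difference also holds any effect of the vector or of selection. Each line was grown as a sheet, made on thermoreactive dishes from which an intact layer detaches at room temperature, and as a monolayer. The paper gives no dish, plating density or culture time for the monolayers, so a difference of format can also hold differences in these. The 4 cultures were an L6-HGF sheet, an L6-WT sheet, an L6-HGF monolayer and an L6-WT monolayer, with 1 array each.

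Values had been deposited as log2, and each probe set was centred on the median of its 4 arrays, so they show differences between cultures and no level. A difference of 1 is 2-fold, the threshold used by the study and here. With 1 array per culture a difference between a pair of cultures had no replicate check and no test. Precision is limited by having only 4 arrays. Spread of a technical kind was read from 45 probe sets for bacterial controls, which match no rat RNA and had an SD of 0.22 between the L6-HGF and the L6-WT sheet and of 0.12 between the L6-HGF and the L6-WT monolayer, with none past 2-fold. The L6-HGF sheet array had the widest values, with an SD over all probe sets of 0.275, against 0.218 in the L6-WT sheet, 0.213 in the L6-HGF monolayer and 0.198 in the L6-WT monolayer. Without levels, the myoblast identity of the cells could not be checked. In bulk RNA, fewer cycling cells and less RNA per cycling cell cannot be told apart.

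Mitotic genes are made late in the cell cycle and are silent in resting cells. As cells approach division, the factors MYBL2 and FOXM1, brought to the DNA by the MuvB complex, and the CCAAT-binding factor NF-Y switch them on, and in resting cells MuvB with RB family proteins and E2F4 keeps them off. MuvB binds a short stretch called the cell cycle homology region. Myoblasts divide until they withdraw from the cycle to fuse into myotubes, which is when these genes go down.

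Promoters are shown first because most members hold the cell cycle homology region, the CCAAT box or both, which the choice of the genes did not use. The letters searched, on both strands, were TTTGAA and TTTAAA for the cell cycle homology region and CCAAT for the NF-Y box, in RefSeq promoters of the rat build GRCr8 that reach from 250 bases before to 50 bases after the annotated start. A TTTGAA that runs into ATTGG shares bases with an inverted box, and 2 such overlapping pairs occurred in member promoters. The 5 members with both motifs in the stretch shown and the largest decrease between sheets are printed with Melk, which had a large decrease and neither motif (nor had Kif18a). Each line runs 5′ to 3′ on the strand of the gene, from 150 bases before the start to 10 bases after it, with the motif letters in capitals.
Depdc1, chr2:251343131-251343290, plus strand: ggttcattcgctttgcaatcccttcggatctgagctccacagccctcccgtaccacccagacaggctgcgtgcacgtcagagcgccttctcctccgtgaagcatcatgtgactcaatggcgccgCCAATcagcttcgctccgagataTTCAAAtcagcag
Prc1, chr1:143659331-143659490, plus strand: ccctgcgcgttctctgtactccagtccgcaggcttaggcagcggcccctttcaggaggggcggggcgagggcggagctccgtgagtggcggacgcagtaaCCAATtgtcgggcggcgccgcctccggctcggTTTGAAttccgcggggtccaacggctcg
Ccnb1, chr2:33655216-33655375, minus strand: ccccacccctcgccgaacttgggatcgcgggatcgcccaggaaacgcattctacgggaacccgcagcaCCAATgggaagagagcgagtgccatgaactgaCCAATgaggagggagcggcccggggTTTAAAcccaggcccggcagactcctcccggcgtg
Spc25, chr3:74396709-74396868, minus strand: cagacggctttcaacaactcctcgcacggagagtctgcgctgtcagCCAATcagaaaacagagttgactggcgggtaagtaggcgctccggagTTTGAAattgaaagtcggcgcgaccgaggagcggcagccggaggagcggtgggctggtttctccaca
Ccnb2, chr8:79981649-79981808, minus strand: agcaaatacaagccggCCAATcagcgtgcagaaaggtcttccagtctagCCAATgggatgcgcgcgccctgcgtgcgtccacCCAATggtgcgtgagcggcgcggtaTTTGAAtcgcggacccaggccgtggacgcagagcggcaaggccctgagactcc
Melk, chr5:63336001-63336160, plus strand: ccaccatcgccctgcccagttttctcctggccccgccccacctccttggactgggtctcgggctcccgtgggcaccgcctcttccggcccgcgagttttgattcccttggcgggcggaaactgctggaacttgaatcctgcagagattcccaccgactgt

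In Ccnb2 a TTTGAA began 43 bases before the start (position -43), with CCAAT boxes at -134, -101 and -68. Ccnb1 held the TTTAAA form at -25 and boxes at -82 and -50. The TTTGAA of Prc1 lay at -18 and its box at -50, that of Spc25 at -57 with a box at -104, and in Depdc1 an inverted match at -3 crossed the start, with a box at -26. Within the stretch shown, the boxes of each of these 5 genes lay upstream of the homology region. That order did not hold in every member: Cdc20 and Ckap2 each had a box downstream of a homology region match.

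The table held 41 promoters of 40 listed genes (Kif2c had more than 1) and none for Ccna2, Aurkb, Cdca2, Pbk, Ube2c, Tpx2, Racgap1 and Esco2. A homology region match stood in 35 of the 41, or 85.4%, against 28.2% of all 33469 promoters in the table and 26.4% of those of protein-coding genes. A CCAAT box stood in 28 of them, or 68.3%, against 37.5% of all promoters, and 2 or more boxes in 21, or 51.2%, against 11.2%. Both motifs occurred together in 25 member promoters (61.0%), against 11.3% of all promoters. The homology region matches of the members also lay close to the start: 40 of 47 (85.1%) began at -100 or later, against 41.1% of matches over all promoters, with a median first base of -35 in members and -126 over all promoters. Their boxes were spread more widely, with a median first base of -102.5 in members and -102 over all promoters. In 30 promoters of DNA replication genes, which act earlier in the cycle, the box stood in 63.3% and the homology region in 16.7%. Over 91 promoters of the other mitosis genes the homology region stood in 50.5% and the box in 53.8%, and for the homology region alone it was 62.1% in the spindle, kinesin and cytokinesis list and 62.5% of 8 condensin promoters. Among lists outside the cell cycle the share reached 71.4%, in 7 promoters of macrophage markers. A match of so few letters is a description and not a site of binding, and none of the arrays measured binding.

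**Figure D1:**
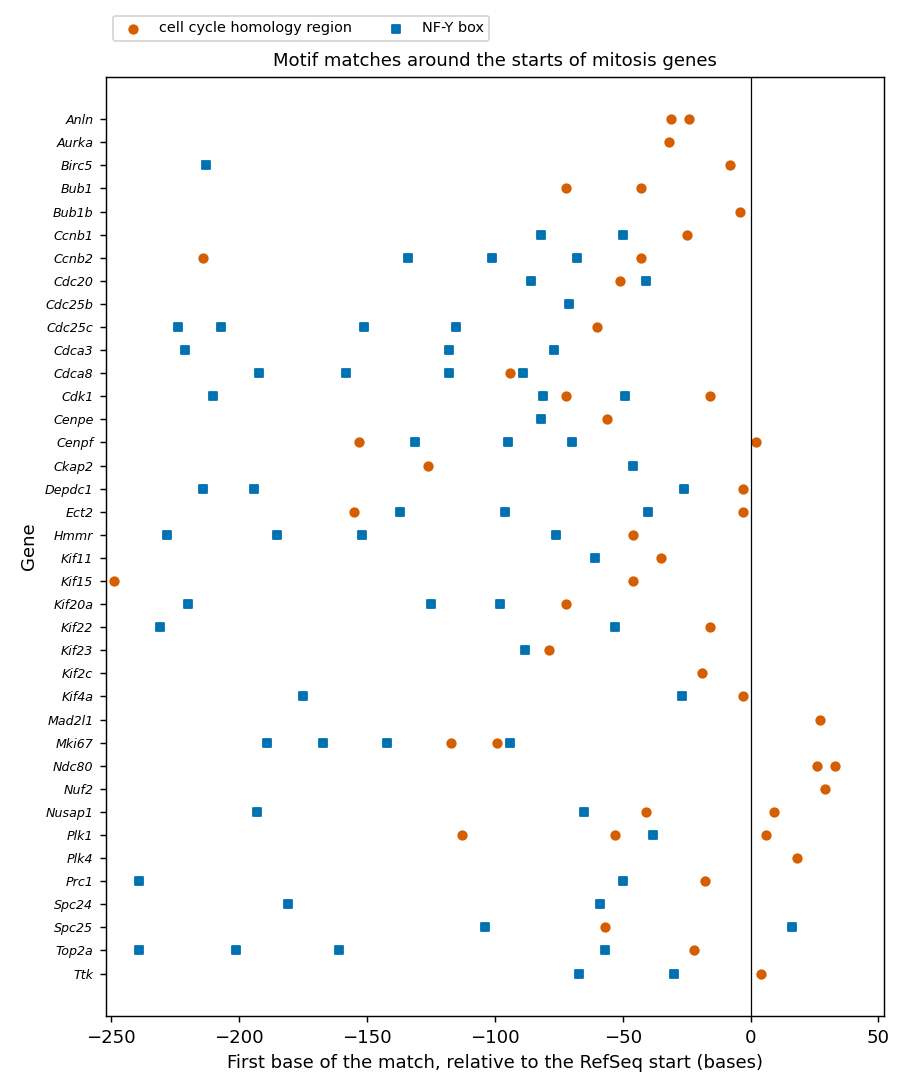
First base of each motif match in the member promoters, in bases from the RefSeq start, with circles for the cell cycle homology region and squares for the NF-Y box. The circles crowd to the right, with 40 of 47 at -100 or later, while 32 of 66 squares lie there.

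In the L6-HGF sheet every measured mitosis gene was at its lowest. The deposited log2 values of the 42 genes lay between -1.95 and -0.43 there, with a median of -1.22. In the L6-WT sheet they lay between -0.43 and 0.54 (median -0.11), in the L6-HGF monolayer between -0.01 and 0.97 (median 0.44), and in the L6-WT monolayer between -0.10 and 0.46 (median 0.13). The L6-HGF sheet was the lowest of the 4 arrays in 42 of 42 members, where it was the lowest in 26% of all genes. At the other end, the L6-HGF monolayer was the highest in 36 members, where it was the highest in 23.3% of all genes. The same L6-HGF cells thus gave the highest values of most members as a monolayer and the lowest values of all members as a sheet. In 30 members the order ran L6-HGF monolayer, L6-WT monolayer, L6-WT sheet, L6-HGF sheet from high to low, an order held by 7.54% of all genes. The exceptions at the top were Melk, Kif15 and Mki67, highest in the L6-WT monolayer, and Depdc1, Esco2 and Kif18a, highest in the L6-WT sheet.

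**Figure D2:**
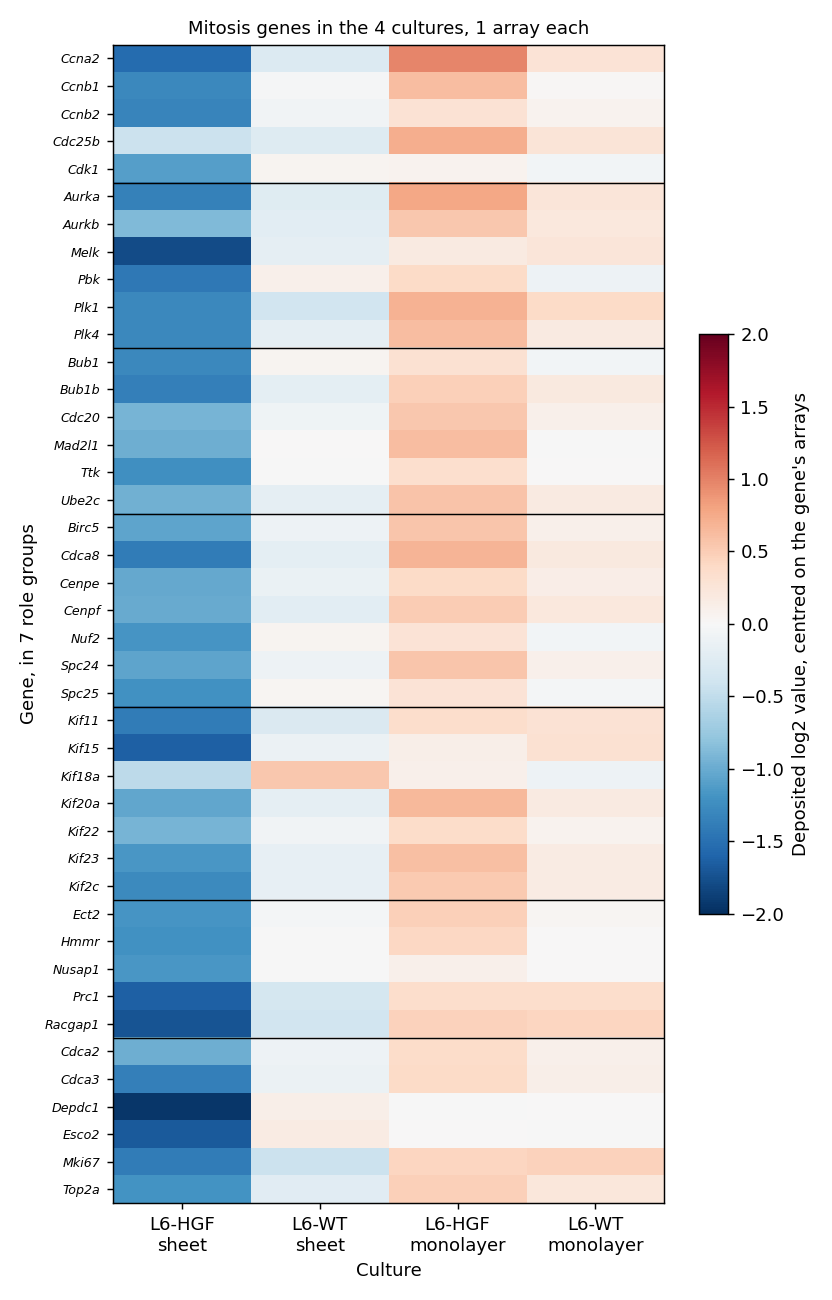
Deposited log2 values of the 42 measured mitosis genes (rows, in 7 role groups parted by lines) in the 4 cultures (columns, 1 array each), centred on each gene's arrays, with blue below and red above 0. The L6-HGF sheet column is below 0 throughout, from -1.95 to -0.43, and the L6-HGF monolayer column holds the strongest reds, up to 0.97 in Ccna2.

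The design gives 4 comparisons, L6-HGF minus L6-WT in each format and sheet minus monolayer in each line. Between sheets, L6-HGF minus L6-WT was below 0 in 42 of 42 members, against 53.7% of all genes, with a median of -1.14 where the median of all genes was -0.02. Past 2-fold, 27 members were lower and 0 higher, where 0.95% of all genes were lower. Between monolayers the members leaned the other way and less: 38 of 42 were above 0, against 50.4% of all genes, with a median of 0.32 where all genes had 0.002. No member passed 2-fold between monolayers, where 0.225% of all genes were higher by that much.

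Sheet minus monolayer in L6-HGF was the widest contrast, with a median of -1.67 over members and 0.03 over all genes. Here 41 of 42 members were lower past 2-fold and 0 higher, against 2.57% of all genes lower. In L6-WT the same contrast had a median of -0.25 over members and 0.03 over all genes, and 33 members were below 0 against 45.6% of all genes. None of the members passed 2-fold in L6-WT, where 0.492% of all genes were lower by that much. The L6-HGF sheet array enters both contrasts in which members passed 2-fold, so these 2 sets of values are not independent of each other. Of the members, 25 lay within 1 control SD (0.22) of the 2-fold line between sheets, 13 of them past it and 12 short of it, so the count of 27 depends on where the line is drawn, while 14 members were lower by more than that margin beyond 2-fold. After quantile normalization of the centred values, which gives the 4 arrays the same spread, 6 members were lower past 2-fold between sheets, with a median of -0.78.

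**Figure D3:**
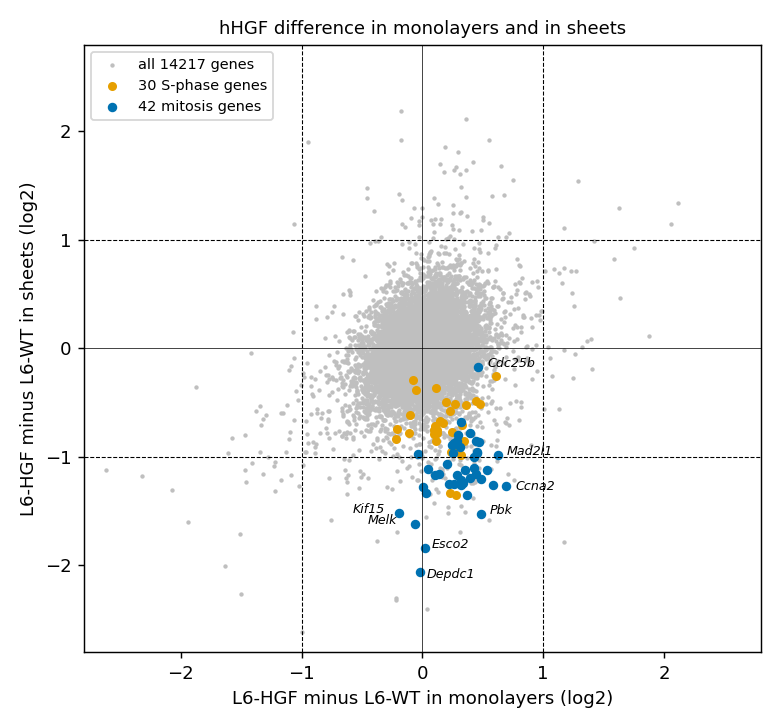
L6-HGF minus L6-WT in monolayers (horizontal axis, log2) against the same difference in sheets (vertical axis, log2) for all 14217 genes (grey), 30 S-phase genes (orange) and 42 mitosis genes (blue), with dashed lines at 2-fold. The mitosis genes lie below 0 on the vertical axis, from -2.06 for Depdc1 to -0.17 for Cdc25b, and 38 of them lie to the right of 0.

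The cyclins and Cdk1 drive entry into mitosis. Ccna2, the cyclin A that acts in S phase and G2, had the widest range of all members: its value was -1.55 in the L6-HGF sheet, -0.28 in the L6-WT sheet, 0.97 in the L6-HGF monolayer and 0.28 in the L6-WT monolayer. It was the member furthest above 0 between monolayers (0.70) and, at -2.52, a 5.73-fold difference, the one furthest apart between sheet and monolayer of L6-HGF. In L6-WT that difference was -0.55. Ccnb1, a B-type cyclin that binds Cdk1 at mitotic entry, had -1.29 in the L6-HGF sheet, -0.03 in the L6-WT sheet, 0.61 in the L6-HGF monolayer and 0.03 in the L6-WT monolayer. Its 2 probe sets gave -1.27 and -1.25 between sheets. Ccnb2, the other B-type cyclin, followed the same order with -1.32, -0.07, 0.29 and 0.07 in L6-HGF sheet, L6-WT sheet, L6-HGF monolayer and L6-WT monolayer. Cdk1, the kinase these cyclins activate, had -1.10 in the L6-HGF sheet and only small values in the rest, 0.06 in the L6-WT sheet, 0.07 in the L6-HGF monolayer and -0.06 in the L6-WT monolayer, so that the L6-HGF sheet stood alone. Cdc25b, a phosphatase that removes the inhibitory phosphates from Cdk1, differed least between sheets of all members. Its values were -0.43 in the L6-HGF sheet, -0.26 in the L6-WT sheet, 0.72 in the L6-HGF monolayer and 0.26 in the L6-WT monolayer. It was lower past 2-fold in sheet minus monolayer of L6-HGF (-1.15) but by only -0.17 between sheets, a size under the control SD.

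Of the other mitotic kinases 4 of 6 were lower past 2-fold between sheets. Melk, the maternal embryonic leucine zipper kinase, had -1.80 in the L6-HGF sheet, -0.18 in the L6-WT sheet, 0.18 in the L6-HGF monolayer and 0.24 in the L6-WT monolayer. It was 3.07-fold lower between sheets (-1.62) and, unlike most members, differed between monolayers by only -0.06. Pbk, a kinase of mitotic cells, had -1.43 in the L6-HGF sheet, 0.10 in the L6-WT sheet, 0.38 in the L6-HGF monolayer and -0.10 in the L6-WT monolayer. Its L6-WT sheet lay above its L6-WT monolayer by 0.20, the reverse of most members but close to the control SD of that contrast (0.18). Aurka, the Aurora kinase of centrosomes and spindle poles, differed by -1.12 between sheets and 0.54 between monolayers. Plk4, which starts centriole duplication, gave -1.10 and 0.42 in those contrasts. Plk1, the Polo kinase that acts throughout mitosis, was short of 2-fold between sheets at -0.91 and lower by -1.99 in sheet minus monolayer of L6-HGF. Aurkb, the Aurora kinase of the chromosomal passenger complex, differed least of this group, by -0.68 between sheets.

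The spindle checkpoint holds anaphase until each kinetochore is attached. Bub1, a checkpoint kinase at kinetochores, had -1.28 in the L6-HGF sheet, 0.06 in the L6-WT sheet, 0.31 in the L6-HGF monolayer and -0.06 in the L6-WT monolayer. Bub1b, the BubR1 protein of the inhibitory complex, was lower by -1.17 between sheets, and Ttk, the Mps1 kinase at the head of the checkpoint, by -1.22. The anaphase-promoting complex partner that this checkpoint holds back, Cdc20, was measured by 5 probe sets that did not move together: 4 gave between -1.11 and -0.88 between sheets, and the remaining one -0.18. That remaining probe set was also nearly flat in sheet minus monolayer of L6-HGF (-0.07, where another of the 5 gave -1.99), and the gene's mean of -0.85 between sheets includes it. Mad2l1, which binds Cdc20, had 3 probe sets from -1.36 to -0.58 between sheets, with a mean of -0.98. Ube2c, the ubiquitin-conjugating enzyme of the anaphase-promoting complex, differed least of the group, by -0.78. All 6 genes of the group were lower past 2-fold in sheet minus monolayer of L6-HGF, and none passed it in L6-WT.

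Kinetochore proteins tie chromosomes to microtubules. Spc25 and Nuf2 are subunits of the NDC80 complex and gave nearly the same values. Spc25 had -1.22 in the L6-HGF sheet, 0.04 in the L6-WT sheet, 0.28 in the L6-HGF monolayer and -0.04 in the L6-WT monolayer. For Nuf2 they were -1.19, 0.05, 0.28 and -0.05 in those cultures, and the differences between sheets were -1.26 for Spc25 and -1.24 for Nuf2. Their partner Spc24 was short of 2-fold at -0.96. Cdca8, the borealin subunit of the chromosomal passenger complex, was lower by -1.20 between sheets and by -2.09 in sheet minus monolayer of L6-HGF. Birc5, the survivin subunit of that complex, differed by -0.95 between sheets. Cenpe, a kinetochore motor, and Cenpf, a large coiled-coil protein of the kinetochore, differed by -0.89 and -0.80 between sheets. In this group 3 of 7 genes passed 2-fold between sheets, the smallest share of the role groups, and all 7 did in sheet minus monolayer of L6-HGF.

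Among the kinesins, motor proteins that build and work the spindle, 5 of 7 were lower past 2-fold between sheets. Kif15, which keeps the spindle bipolar together with Kif11, had -1.63 in the L6-HGF sheet, -0.11 in the L6-WT sheet, 0.11 in the L6-HGF monolayer and 0.30 in the L6-WT monolayer. It was the member most below 0 between monolayers (-0.19). Kif11, the Eg5 motor that pushes the poles apart, was lower by -1.11 between sheets. Kif2c, which takes microtubule ends apart, gave -1.12, and Kif23, a motor of the central spindle, lay just past the line, with -1.17 in the L6-HGF sheet and -0.17 in the L6-WT sheet. Kif18a, which damps chromosome movement at the metaphase plate, departed from this pattern. It had -0.52 in the L6-HGF sheet, 0.54 in the L6-WT sheet, 0.10 in the L6-HGF monolayer and -0.10 in the L6-WT monolayer. Its sheet minus monolayer difference was 0.65 in L6-WT, the highest of the members, and -0.62 in L6-HGF, where it was the one member within 2-fold. Kif20a, which acts in cytokinesis, and Kif22, which pushes chromosome arms from the poles, differed by -0.86 and -0.85 between sheets and passed 2-fold in sheet minus monolayer of L6-HGF, at -1.68 and -1.29.

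All 5 measured genes of the spindle and cytokinesis group were lower past 2-fold between sheets. Racgap1, a subunit of centralspindlin with Kif23, had -1.72 in the L6-HGF sheet, -0.39 in the L6-WT sheet, 0.46 in the L6-HGF monolayer and 0.43 in the L6-WT monolayer. Prc1, which bundles the microtubules of the central spindle, had -1.63 in the L6-HGF sheet, -0.35 in the L6-WT sheet, 0.36 in the L6-HGF monolayer and 0.35 in the L6-WT monolayer. In both genes the monolayers nearly coincided, at differences of 0.03 for Racgap1 and 0.00 for Prc1, and the L6-WT sheet was already below its monolayer, by -0.81 and -0.71. Hmmr, a spindle protein and hyaluronan receptor, differed by -1.20 between sheets, and Ect2, the exchange factor that switches on RhoA for cytokinesis, by -1.15. Nusap1, which binds spindle microtubules near chromosomes, had -1.16 in the L6-HGF sheet, 0.00 in both L6-WT cultures and 0.10 in the L6-HGF monolayer.

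The remaining group acts on chromatids and chromosomes or is named for the cell cycle. Depdc1, a protein with a DEP domain, had the largest difference of all members between sheets: -1.95 in the L6-HGF sheet, against 0.11 in the L6-WT sheet, -0.01 in the L6-HGF monolayer and 0.01 in the L6-WT monolayer, a 4.18-fold difference of -2.06. Esco2, the acetyltransferase that locks cohesin onto replicated chromatids, followed with -1.68 in the L6-HGF sheet, 0.16 in the L6-WT sheet, 0.01 in the L6-HGF monolayer and -0.01 in the L6-WT monolayer. In both genes 3 of the 4 cultures lay within 0.17 of each other and only the L6-HGF sheet stood apart. Cdca3, which promotes mitotic entry, was lower by -1.25 between sheets. Top2a, the topoisomerase that untangles chromatids, and Cdca2, which brings a phosphatase to chromatin, differed by -0.96 and -0.87. Mki67, the Ki-67 protein that coats mitotic chromosomes and is used as a stain for cycling cells, had -1.40 in the L6-HGF sheet, -0.43 in the L6-WT sheet, 0.43 in the L6-HGF monolayer and 0.46 in the L6-WT monolayer. In L6-WT it was the member furthest below 0 for sheet minus monolayer (-0.89), and its difference between sheets was -0.97.

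The size of the L6-WT contrast set the members apart from one another. Relative to their monolayer, L6-WT sheets had lower Mki67 (-0.89), Racgap1 (-0.81), Plk1 (-0.77), Prc1 (-0.71) and Kif11 (-0.59). The 9 members above 0 there were Kif18a, Pbk, Esco2, Bub1, Cdk1, Nuf2, Depdc1, Spc25 and Mad2l1, and apart from Kif18a (0.65) they did not exceed 0.20. The bacterial controls had an SD of 0.18 in this contrast, and of these 9 only Kif18a and Pbk lay above it. In L6-HGF the same 9 genes lay between -1.94 and -0.62.

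The hHGF difference in sheets minus that in monolayers was below 0 in 42 of 42 members, with a median of -1.42 where all genes had -0.01. It was below -1 in 39 members, against 1.43% of all genes, and lowest in Depdc1 (-2.04), Pbk (-2.01) and Ccna2 (-1.96). Members reached similar sizes along different routes: Depdc1 and Esco2 by their sheets alone, Ccna2 and Ccnb1 by a lower value in sheets together with a higher one in monolayers. With 4 arrays this difference has no residual degree of freedom and was not tested.

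The one model that could be tested was limma's additive model of line and format over 14217 genes. Its 1 residual degree of freedom is the line-by-format difference just described. limma draws the spread that this difference gives for each gene towards a value shared by all genes (empirical Bayes moderation). Its p-values thus set each effect against this moderated spread and not against replicate cultures. It called 0 genes for an hHGF effect common to both formats (0% of genes) at an adjusted p under 0.05, and none of the members had an unadjusted p under 0.05, where 602 of all genes were higher and 710 lower at that level. In 38 of 42 members the hHGF difference was below 0 in sheets and above 0 in monolayers. The effect common to both formats averages these opposite signs, so it cannot show an hHGF difference held within a single format. For format limma called 2 genes (0.0141%), neither a member: Txnip, a glucose-responsive inhibitor of thioredoxin, lower in sheets by -3.80, and Dpt, the matrix protein dermatopontin, higher by 3.41, both with an adjusted p of 0.0339 in limma. The smallest limma adjusted p of a member for format was 0.120, for Mki67 with an effect of -1.36. At an unadjusted p under 0.05, 21 of 42 members were lower in sheets and 0 higher, where 13.3% of all genes were lower. The format effect averages the lines, whose member medians for sheet minus monolayer were -1.67 in L6-HGF and -0.25 in L6-WT. No member passed 2-fold in L6-WT. After quantile normalization limma called 3 members for format, Mki67, Plk1 and Racgap1, all lower in sheets, where it called 2.14% of all genes lower.

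Of 86 further mitosis genes measured, 16 were lower past 2-fold between sheets and 0 higher, where 0.95% of all genes were lower. The median of the 86 was -0.54, with 73 below 0 and 13 above, against 53.7% of all genes below 0. The spindle, kinesin and cytokinesis list was nearest to the members, with 9 of 24 lower and a median of -0.82: Shcbp1 gave -1.45, Kifc1, a minus-end motor, -1.36, Kif14 -1.34, and Spag5 and Dlgap5, spindle proteins, -1.24 each. The other 4 were Fam83d (-1.22), Kif18b (-1.13), Aspm (-1.07) and Knstrn (-1.01). Of 27 centromere genes 5 were lower and the median was -0.63, with Ska1 at -1.58, Cenpw at -1.55, Kntc1 at -1.42, Cenpn at -1.06 and Mis18a at -1.03. Condensin genes, which compact chromosomes, had a median of -0.70 between sheets with 0 of 7 past 2-fold. In sheet minus monolayer of L6-HGF 39 of the 86 further genes were lower past 2-fold and 0 higher, against 2.57% of all genes lower. In L6-WT 1 was lower, Espl1 (-1.15), against 0.492% of all genes.

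No gene of the cohesin core or of the anaphase-promoting complex list passed 2-fold between sheets. Between sheets the cohesin subunit genes Smc1a, Smc3, Rad21, Stag1 and Stag2 gave 0.01, -0.09, -0.37, -0.42 and 0.19. In that list of 13, with a median of -0.09, Espl1, the separase that cuts cohesin (-1.33), and its inhibitor Pttg1, securin (-1.02), were the genes past 2-fold. The 15 genes of the anaphase-promoting complex and its regulators had a median of -0.09 and 0 past 2-fold between sheets. Cdc20 and Ube2c, which act with the complex and are among the members, were also short of 2-fold there, at -0.85 and -0.78. In sheet minus monolayer of L6-HGF 2 of the 15 were lower past 2-fold, Fbxo5 (-1.20) and Fzr1 (-1.06). In the 30 replication genes the median was -0.73 between sheets, 0.19 between monolayers, -1.28 for sheet minus monolayer in L6-HGF and -0.36 in L6-WT. Past 2-fold, 2 of them were lower between sheets, Pole2 (-1.35) and Gins1 (-1.33), against 27 of 42 mitosis genes and 0.95% of all genes. In sheet minus monolayer of L6-HGF 22 of the 30 were lower past 2-fold, against 2.57% of all genes.

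**Figure D4:**
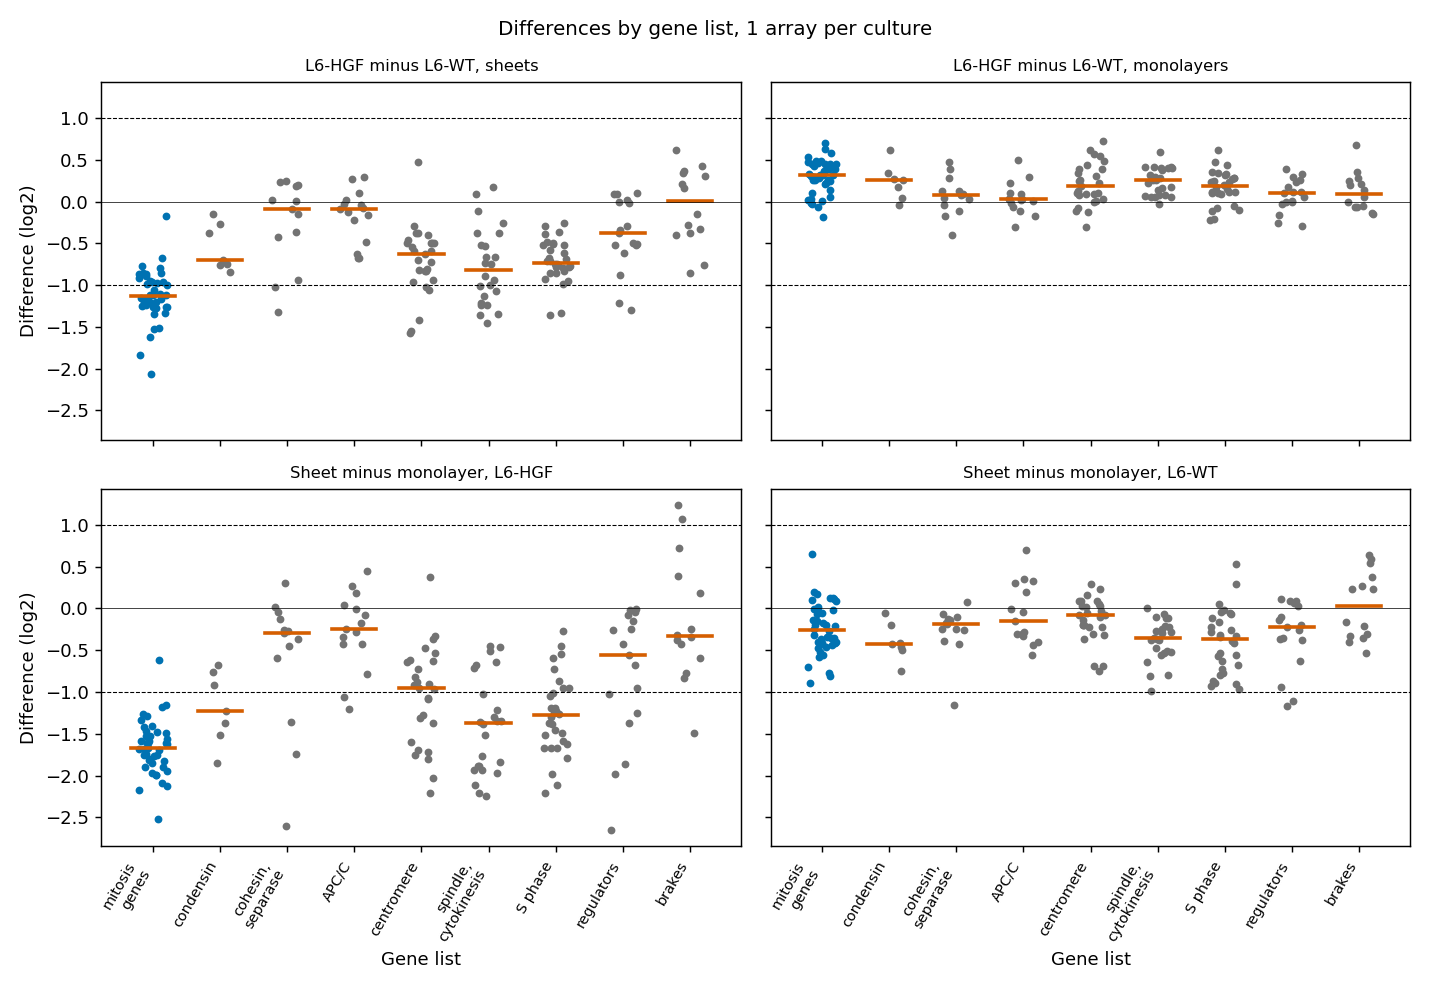
Log2 differences of each gene (points) in 9 lists for the 4 comparisons, with a bar at each list's median and dashed lines at 2-fold. Mitosis genes (blue) have medians of -1.14 between sheets, 0.32 between monolayers, -1.67 for sheet minus monolayer in L6-HGF and -0.25 in L6-WT, while cohesin and anaphase-promoting complex genes have medians of -0.09 between sheets.

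Of the 17 measured factors that switch mitotic genes, 13 were below 0 between sheets and 4 above, where 53.7% of all genes were below. In sheet minus monolayer of L6-HGF all 17 were below 0, against 45.9% of all genes, with a median of -0.55. Foxm1 had -0.83 in the L6-HGF sheet, -0.31 in the L6-WT sheet, 0.42 in the L6-HGF monolayer and 0.31 in the L6-WT monolayer, a difference of -0.52 between sheets. Mybl2 differed by -0.49 and E2f1 by -0.34 between sheets. Past 2-fold there were only the atypical repressors E2f7 (-1.29) and E2f8 (-1.21), of 17 measured in the list, which had a median of -0.38. Over all genes, 0.95% were lower by that much. For the binding factor of the CCAAT box, subunit genes Nfya, Nfyb and Nfyc gave -0.29, -0.38 and 0.00. In sheet minus monolayer of L6-HGF 6 of the 17 were lower past 2-fold (E2f8 at -2.65, E2f7 at -1.98, E2f2 at -1.86, Rbl1 at -1.37, Foxm1 at -1.26 and Lin9 at -1.02), against 2.57% of all genes. In L6-WT 2 were, E2f2 (-1.17) and E2f8 (-1.11), against 0.492% of all genes. The 14 brakes on mitotic entry had a median of 0.00 between sheets with 0 past 2-fold. In sheet minus monolayer of L6-HGF, Ccng2, an atypical cyclin of resting cells, was higher by 1.23 and Gadd45a, a stress-induced inhibitor of Cdk1, by 1.08, while Chek1, the replication checkpoint kinase, was lower at -1.50. Of all 14217 genes, 167 were higher and 366 lower past 2-fold in that contrast.

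Markers of other cells were read beside these values. The 16 myotube markers measured had a median of -0.21 between sheets and 0.19 for sheet minus monolayer in L6-HGF, against -1.14 and -1.67 in the mitosis genes. Past 2-fold, 2 of the 16 were lower between sheets, Acta1 (-2.01) and Mymk, 5 were lower between monolayers, and in sheet minus monolayer of L6-HGF 0 passed in either direction. Of all 14217 genes, 135 were lower past 2-fold between sheets and 44 between monolayers. The 12 fibroblast markers had a median of -0.60 between sheets, with Postn (-1.12) and Dpt (-1.08) past 2-fold. For sheet minus monolayer their median was -0.20 in L6-HGF, with 7 of 12 below 0, and 0.13 in L6-WT, with 5 of 12 below 0. Dcn, Lum, Postn and Dpt were the 4 past 2-fold there, higher by 1.04 to 3.48 in L6-HGF and 2.07 to 3.36 in L6-WT, while Col1a1 had -0.86 in L6-HGF and -0.43 in L6-WT. Of all 14217 genes, 167 were higher past 2-fold for sheet minus monolayer in L6-HGF and 102 in L6-WT. None of the 7 endothelial and 8 macrophage markers passed 2-fold in any comparison. RNA integrity could only be compared between arrays, because the 5′ and 3′ probe sets were each centred on their 4 arrays. A value near 0 is therefore no sign of intact RNA. The 5′ minus the 3′ value was -0.08 for Gapdh in the L6-HGF sheet, -0.02 in the L6-WT sheet, 0.02 in the L6-HGF monolayer and -0.02 in the L6-WT monolayer. For actin those values were -0.08, -0.11, 0.12 and 0.06. The part of these marker and integrity differences in the mitosis gene values was not tested.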

How the data were processed

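RNA of 4 L6 cultures was hybridised to Affymetrix whole-genome rat arrays, 1 per culture, which define the 4 groups. The authors normalised the arrays with RMA (named in the submitters' processing notes, version not given in the sources used here) and deposited log2 values, each probe set centred on its median over the 4 arrays (largest absolute median 5e-07). Here 57 control probe sets were left out, 31042 compared, 20826 named by a single gene symbol (436 had several, 9780 none listed), and the probe sets of a gene averaged. Centred values cannot be tested for brightness, so no filter on dim probes was used. Differences between arrays carried no test. limma 3.58.1 (R 4.3.3) fitted line and format with empirical Bayes moderation and Benjamini-Hochberg adjustment. The fit was run on simulated data with additive effects and no line-by-format difference. That run does not check the p-values of genes that hold such a difference. Motifs were counted in Python 3.11.15.

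Named are members past 2-fold in any comparison, the 2 per role group with the largest difference between sheets and the one nearest 0, members whose probe sets differ in sign or by over 1, other listed genes past 2-fold (counts only where many passed, outside the comparison of sheets), Foxm1, Mybl2 and E2f1. Any gene named beyond these was chosen after its values were seen. Members and lists were chosen with earlier results of these data known. Alternatives were quantile normalization, centring on the median of all genes, the median of probe sets, plain probe sets only, a 1.5-fold threshold and, for limma, 1 term at a time and probe sets in place of genes.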

Additional observations from a re-analysis of the deposited data

Results flagged for a closer look

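The hHGF difference in sheets minus that in monolayers had a median of -1.42 over the 42 mitosis genes. Of these, 24 genes were past 2-fold in one format with the opposite sign in the other, all lower in sheets. Over all genes, 0.605% did so with the lower value in sheets, and 0.739% in either direction. With 1 array per culture each sign rests on a single pair of arrays, and the difference was not tested. Among the cyclins and Cdk1 the difference was -1.96 for Ccna2, -1.85 for Ccnb1, -1.48 for Ccnb2 and -1.30 for Cdk1. The kinases Pbk, Aurka and Plk4 gave -2.01, -1.65 and -1.53. The checkpoint genes Bub1, Ttk and Bub1b gave -1.72, -1.54 and -1.45. At the kinetochore Cdca8 had -1.68, and Spc25 and Nuf2 had -1.58 each. The kinesins Kif2c, Kif23, Kif18a and Kif11 lay at -1.47, -1.43, -1.27 and -1.16. In the spindle and cytokinesis group the values were -1.60 for Ect2, -1.59 for Hmmr, -1.36 for Racgap1, -1.28 for Prc1 and -1.26 for Nusap1. Esco2 and Cdca3 gave -1.86 and -1.51. In 5 of the 24, Prc1, Esco2, Racgap1, Kif11 and Nusap1, the monolayer differences were 0.00, 0.02, 0.03, 0.05 and 0.10, below the SD of the controls between monolayers (0.12), and the 2 probe sets of Kif11 differed in sign there. After quantile normalization Prc1 (-0.02) and Racgap1 (-0.01) were no longer above 0 between monolayers. Over all genes, 23.1% were below 0 in sheets and above 0 in monolayers, against 38 of 42 members.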

How the results depend on the processing

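The direction of the medians and counts over the members held under each alternative run, and none reversed. Quantile normalization moved the most. It was run on the centred values, which the authors had already normalised with RMA. It gives the 4 arrays 1 distribution and so removes the wider spread of the L6-HGF sheet array. Whether that spread was technical or belonged to the culture was not tested. After quantile normalization 6 members in place of 27 were lower past 2-fold between sheets, where 0.443% of all genes were lower. These were Depdc1, Esco2, Melk, Kif15, Pbk and Kif18a, all among the 27. Under it the member median was -0.78 between sheets, -1.30 for sheet minus monolayer in L6-HGF, where 39 of the 41 genes remained lower, against 1.7% of all genes, and -1.06 for the difference of the hHGF differences. limma then called 2 genes for hHGF and 587 for format. At a 1.5-fold threshold 41 members were lower between sheets (3.58% of all genes), 2 higher between monolayers (1.22%), and in L6-WT sheets 5 were lower (3.76%) and 1 higher (3.37%) than in monolayers. For format limma called 0 genes in place of 2 without the line term and 0 on probe sets. For single genes, Cdc20 moved most with the choice of probe sets, to -0.61 between sheets on plain probe sets alone. No paired analysis was possible because each group had 1 array, and no array could be left out. The number of arrays and centring set the limits: no dim probe could be told from a bright one.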

Other observations

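Probe sets with more than 1 gene symbol were left out of the gene values, and 2 of them touch listed genes without a probe set of their own. The probe set of Anln and Anlnl1 had -0.49 in the L6-HGF sheet, -0.27 in the L6-WT sheet, 0.74 in the L6-HGF monolayer and 0.27 in the L6-WT monolayer. The probe set of Ckap2 and its pseudogene Ckap2-ps3 had -1.27 in the L6-HGF sheet, -0.29 in the L6-WT sheet, 0.51 in the L6-HGF monolayer and 0.29 in the L6-WT monolayer. Both held the same order of cultures as 30 of the 42 members. Which gene each signal came from cannot be told from these probe sets.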
